A study of Homo sapiens with 6 samples.

Results

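The genes described here are 41 targets, effectors and sensors of ATF4 signalling and of the unfolded protein response. They were chosen by symbol from a list that was fixed with earlier results of these data known. Each was found once among 42887 gene symbols in the deposited tables. The 41 genes fall into an ATF4 arm of 23 genes, an XBP1/ATF6 arm of 15 genes and 3 sensors of endoplasmic reticulum (ER) stress, EIF2AK3 (PERK), ERN1 (IRE1) and ATF6. The study profiled total RNA from 3 castration sensitive human prostate cancer cell lines and a castration resistant derivative of each, with 1 library per line. The labels pair LNCaP (written LnCaP in the labels) with LNCaP-abl, VCaP with VCaP-CR and LAPC4 with LAPC4-CR. LNCaP and LAPC4 were grown in RPMI with 10% fetal bovine serum (FBS) and VCaP in DMEM with 10% FBS, whereas all 3 resistant lines were grown in RPMI with 10% charcoal-stripped FBS and B27 supplement. No other treatment was given. Charcoal stripping removes steroid hormones from serum, and B27 is a defined supplement that contains insulin and antioxidants. Medium and resistance therefore cannot be told apart in any pair, and in the VCaP pair the basal medium differs as well. No line has a second library and nothing in the labels says that libraries came from separate cultures, so a difference within a pair has no replicate check.

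Unfolded protein in the ER activates PERK, IRE1 and ATF6. PERK phosphorylates the translation initiation factor eIF2, as do other kinases that sense amino acid shortage, haem shortage or double-stranded RNA, and this slows protein synthesis while favouring translation of the transcription factor ATF4. ATF4 raises genes for amino acid synthesis, tRNA charging and stress adaptation. IRE1 splices the XBP1 mRNA, and ATF6 is cut to release a transcription factor; spliced XBP1 and cut ATF6 raise chaperones, folding enzymes and the machinery that removes misfolded proteins from the ER. Gene-level RNA abundance shows neither XBP1 splicing nor the amount of ATF4 protein. Prostate luminal cells are secretory and carry a large ER.

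The promoters of the 2 arms differ in the sequences known to bind these factors, which are shown first because the arms are compared throughout. A promoter window, from RefSeq on GRCh38.p14, ran from 250 bases before to 50 bases after a gene's start. Genes with more than 1 start had more than 1 window, as CANX with 4, and a motif in any of them counted. Such windows were matched for 37 of the 41 members, AARS, GARS and WARS through their current symbols AARS1, GARS1 and WARS1. PSPH, SHMT2, NUPR1 and ALDH1L2 were not matched. These motifs were searched on both strands. The ER stress response element (ERSE, CCAAT and CCACG with 9 bases between) was in 0.0916% of 27305 genes with a window, ERSE-II (ATTGG and CCACG with 1 base between) in 0.0696%, the CCACG core that both contain in 42.1%, and the C/EBP-ATF response element bound by ATF4 (CARE, TGATGNAA) in 4.46%. Those 27305 genes include genes not expressed here. Of the non-members with a window that passed the expression filter given below, 4800 held CCACG and 3477 did not. CARE was held by 217 of them and not by 8060.

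In the XBP1/ATF6 arm, ERSE was present in 7 of 15 genes (HSPA5, HSP90B1, XBP1, CRELD2, PDIA6, CALR and CANX), ERSE-II in 2 (HERPUD1 and SDF2L1) and CCACG in all 15. The half-sites of these matches are alike by the definition of the search, and only the bases between them are free. The following stretches show ERSE and ERSE-II matches in genes of the arm. Each is written 5′ to 3′ in the gene's direction and lies before the gene's start, and capitals mark the motif. HSPA5 is shown over the 250 bases before its start, at chr9:125241344-125241593 (-). The others are 60 bases each: HSP90B1 at chr12:103930195-103930254 (+), PDIA6 at chr2:10812833-10812892 (-), CALR at chr19:12938363-12938422 (+), CRELD2 at chr22:49918533-49918592 (+), HERPUD1 at chr16:56932000-56932059 (+) and SDF2L1 at chr22:21642089-21642148 (+). In CALR, CRELD2 and SDF2L1 the motif is on the opposite strand, so the capitals are its reverse complement.
HSPA5: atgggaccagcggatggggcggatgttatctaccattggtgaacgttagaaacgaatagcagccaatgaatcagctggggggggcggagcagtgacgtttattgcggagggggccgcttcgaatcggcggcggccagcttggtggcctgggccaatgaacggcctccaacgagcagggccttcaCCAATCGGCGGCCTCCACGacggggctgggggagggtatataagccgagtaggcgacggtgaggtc
HSP90B1: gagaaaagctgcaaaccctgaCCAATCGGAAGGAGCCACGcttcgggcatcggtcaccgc
PDIA6: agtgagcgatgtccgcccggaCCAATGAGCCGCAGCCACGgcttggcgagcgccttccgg
CALR: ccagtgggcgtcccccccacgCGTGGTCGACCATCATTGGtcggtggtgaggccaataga
CRELD2: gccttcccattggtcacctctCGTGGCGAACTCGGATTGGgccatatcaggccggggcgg
HERPUD1: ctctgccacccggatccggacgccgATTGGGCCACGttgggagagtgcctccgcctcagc
SDF2L1: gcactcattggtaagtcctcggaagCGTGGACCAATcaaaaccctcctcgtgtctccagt

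Of the 19 matched promoters of the ATF4 arm, ERSE was in 0 and ERSE-II in 0, CCACG was in 10 and CARE in 5 (ASNS, CHAC1, ATF3, AARS and GARS). CARE was in 1 promoter of the other arm, HERPUD1. The 5 CARE stretches follow, with the motif in capitals. CHAC1 is shown over the 250 bases before its start at chr15:40953221-40953470 (+), and 60 bases are shown for ASNS at chr7:97872443-97872502 (-), ATF3 at chr1:212565190-212565249 (+), AARS at chr16:70289660-70289719 (-) and GARS at chr7:30594818-30594877 (+). In CHAC1, AARS and GARS the capitals are the reverse complement of the motif. A match is a description of these letters, and ATF4 sites are known in other parts of genes, introns included.
CHAC1: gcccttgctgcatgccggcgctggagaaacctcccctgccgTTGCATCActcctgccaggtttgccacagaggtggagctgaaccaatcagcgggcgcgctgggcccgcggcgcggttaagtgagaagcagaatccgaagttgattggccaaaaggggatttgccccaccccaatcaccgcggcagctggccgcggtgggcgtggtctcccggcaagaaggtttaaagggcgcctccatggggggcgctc
ASNS: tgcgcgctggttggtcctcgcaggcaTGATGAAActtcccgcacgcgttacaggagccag
ATF3: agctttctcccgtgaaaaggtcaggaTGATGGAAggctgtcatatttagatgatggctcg
AARS: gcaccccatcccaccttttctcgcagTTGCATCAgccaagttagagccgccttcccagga
GARS: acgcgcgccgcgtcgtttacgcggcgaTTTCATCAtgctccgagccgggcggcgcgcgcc

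The 6 libraries held 8661337 to 22433655 gene counts, with more counts on the resistant side of each pair. Levels are given as scaled FPKM: the deposited FPKM, which adjusts counts for gene length and library total, divided by a factor per library (0.847 to 1.11) that centres the ratios of genes detected in every library. Of 10 prostate luminal markers, 10 were at 1 scaled FPKM or more in 4 libraries, 8 in LNCaP-abl and 9 in LAPC4-CR. KLK3 and KLK2 were both at 0.65 in LNCaP-abl, and TMPRSS2 was at 0.64 in LAPC4-CR. The ETS factor ERG, fused to TMPRSS2 in VCaP cells, stood at 16.9 in VCaP, 5.46 in VCaP-CR and 0.19 or less elsewhere. Of 10 markers of immune, endothelial, stromal and muscle cells, 9 were in the tables. Their summed level was 3.04 to 6.81 in the sensitive libraries and 4.20 to 53.0 in the resistant ones, and none of the 9 was at 0 in any library. Nearly all of the highest sum was 1 gene, the proteoglycan LUM, at 3.94 in VCaP and 50.2 in VCaP-CR, and its part in the results for the VCaP pair was not tested. In RNA from a whole culture, fewer cells of a kind and less RNA per cell cannot be told apart.

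The 2 arms differed from each other in the VCaP and LAPC4 pairs, through a different arm in each. In LAPC4-CR the ATF4 arm was lower than in its parent: 20 of the 22 members tested were below LAPC4. In VCaP-CR the XBP1/ATF6 arm was high: all 15 members were above VCaP. The LNCaP pair showed neither pattern. Over all members tested, 19 of 40 were higher in LNCaP-abl (49.1% of all genes tested), 32 in VCaP-CR (48.5%) and 16 in LAPC4-CR (48.3%). A change here is the difference in log2(scaled FPKM + 1), resistant minus sensitive, for 16231 genes whose mean reached 1 scaled FPKM, and at least 2-fold means a change of at least 1 on that scale, which understates the ratio of genes with low levels. Of the members, 40 passed this filter. ALDH1L2, a mitochondrial folate enzyme, did not, with levels of 0.132 to 2.08.

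The median change of the ATF4 arm came to -0.29, 0.16 and -0.96 for the LNCaP, VCaP and LAPC4 lines. For the XBP1/ATF6 arm it was -0.07, 1.29 and 0.19 in the same order. Over all genes tested the medians were -0.01, -0.01 and -0.02, so the ATF4 arm in LAPC4 and the XBP1/ATF6 arm in VCaP lay far from the typical gene of their own pair. The ATF4 arm minus the XBP1/ATF6 arm came to -0.23, -1.13 and -1.15 for these lines. Nearly equal differences in VCaP and LAPC4 came from different arms.

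**Figure D1:**
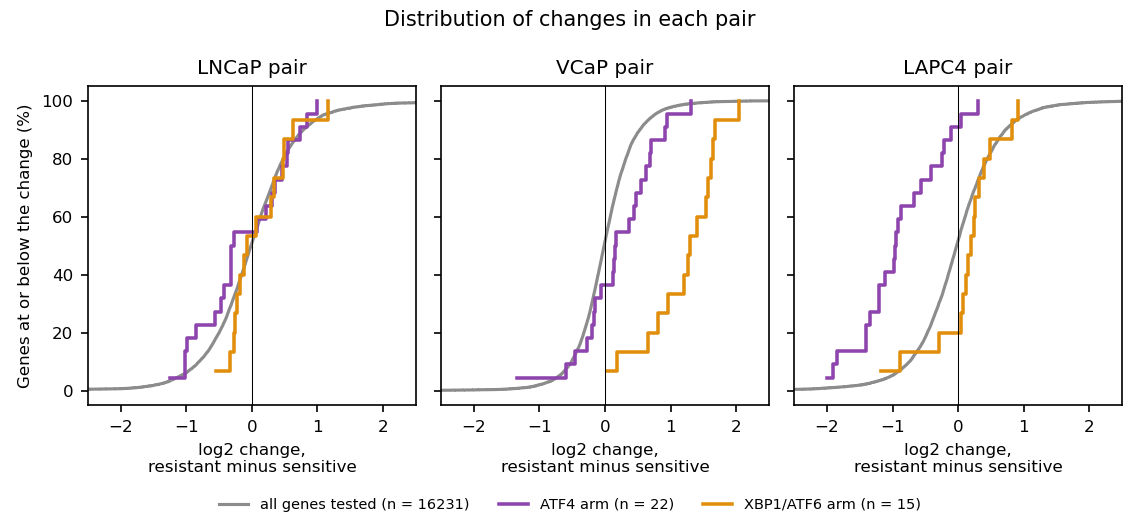
Cumulative share of genes (percent) at or below each change in log2(scaled FPKM + 1), resistant minus sensitive, in each pair, for all genes tested (grey), the ATF4 arm (purple) and the XBP1/ATF6 arm (orange). Both arms lie near the grey line in the LNCaP pair, the XBP1/ATF6 arm lies to its right in the VCaP pair with a median of 1.29, and the ATF4 arm lies to its left in the LAPC4 pair with a median of -0.96.

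Counts past 2-fold show the same split. In the LNCaP pair 1 of 40 members was at least 2-fold higher, against 6.23% of all genes tested, and 3 were at least 2-fold lower, against 6.19%, shares close to the background. In the VCaP pair 12 members were at least 2-fold higher, against 2.37% of genes, and 1 was lower, against 2.03%. Of these 12, 10 belonged to the XBP1/ATF6 arm (HSPA5, HSP90B1, DNAJC3, SEL1L, SDF2L1, CRELD2, MANF, PDIA4, PDIA6 and CALR), with STC2 and EIF2AK3 from the other groups. In the LAPC4 pair 1 member, EIF2AK3, was at least 2-fold higher, against 5.22% of genes, and 10 were lower, against 5.28%. Of these 10, 9 belonged to the ATF4 arm (ATF4, CHAC1, DDIT3, SESN2, PSPH, CEBPB, ATF3, STC2 and NUPR1) and the other was MANF. In all, 24 of 40 members changed at least 2-fold in at least 1 pair, against 23.3% of genes.

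**Figure D2:**
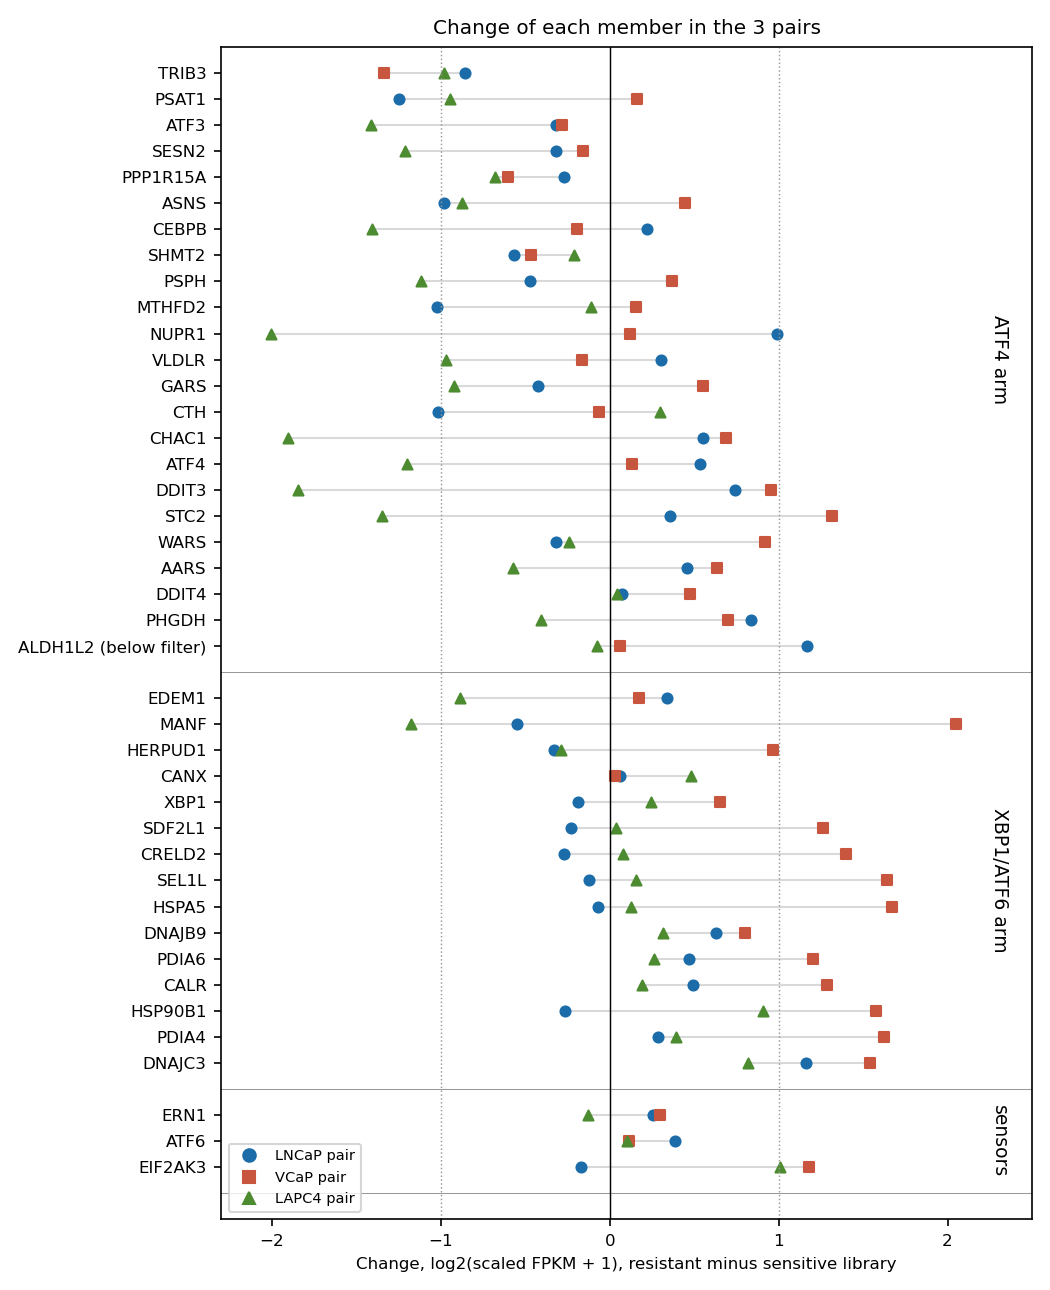
Change of each of the 41 members in log2(scaled FPKM + 1), resistant minus sensitive, with 1 point per pair (circle LNCaP, square VCaP, triangle LAPC4), ordered by mean change within each group; dotted lines mark 2-fold. In the ATF4 arm most triangles lie left of 0 (20 of 22 tested), and in the XBP1/ATF6 arm all 15 squares lie right of it.

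The transcription factors of the ATF4 arm were highest in LAPC4 and lower in LAPC4-CR. ATF4 (ENSG00000128272, chr22:38245646-38248637 in hg18) stood at 105 scaled FPKM in LNCaP against 153 in its derivative, at 83.8 against 92.0 in the VCaP pair, and at 282 against 122 in the LAPC4 pair. LAPC4 was the highest of the 6 libraries, and both VCaP libraries lay below the other 4. The ratio of sensitive to resistant was 2.31 in the LAPC4 pair, a change of -1.20, while the changes in LNCaP and VCaP were 0.53 and 0.13. The mean change over pairs was -0.18 ± 0.91 (SD, n = 3).

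DDIT3, which encodes the stress factor CHOP (ENSG00000175197, chr12:56196638-56200567 in hg18), stood at 8.27 in LNCaP against 14.5 in its derivative, at 10.7 against 21.7 in the VCaP pair, and at 39.3 against 10.2 in the LAPC4 pair. It was higher in the resistant library of 2 pairs, with changes of 0.74 and 0.95, and lower in the third with a change of -1.85. ATF3, an early stress factor of the same bZIP family, was at 4.69 and 3.57 in the LNCaP pair, 0.970 and 0.623 in the VCaP pair, and 21.8 and 7.56 in the LAPC4 pair, sensitive value first. It was lower in all 3 resistant libraries, and the LAPC4 libraries lay above all others. NUPR1, a small stress-induced chromatin protein (chr16:28456107-28457996 in hg18), was at 46.2 and 92.6 in the LNCaP pair, 63.7 and 69.2 in the VCaP pair, and 204 and 50.1 in the LAPC4 pair. Its change was 0.99 in the LNCaP pair and -2.00 in the LAPC4 pair. CEBPB, a bZIP partner of ATF4, was at 9.64 and 11.4, 5.12 and 4.34, and 13.1 and 4.31 in the same order, with its only change past 2-fold, -1.41, in LAPC4.

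Enzymes of serine, asparagine and one-carbon metabolism moved in both directions in the LNCaP pair, and the 3 members at least 2-fold lower there, a share close to the background, were PSAT1, MTHFD2 and CTH. PSAT1, the aminotransferase of serine synthesis, was at 135 in LNCaP and 56.1 in LNCaP-abl, at 44.5 and 50.0 in the VCaP pair, and at 90.2 and 46.4 in the LAPC4 pair. LNCaP was 2.40-fold above LNCaP-abl, with a change of -1.25. MTHFD2, a mitochondrial folate enzyme, was at 32.1 and 15.2 in the LNCaP pair, 15.2 and 17.1 in the VCaP pair, and 51.2 and 47.2 in the LAPC4 pair. Its change was -1.03 in LNCaP, and the LAPC4 libraries were the highest. CTH, which makes cysteine from cystathionine, was at 4.20 and 1.58, 2.37 and 2.22, and 3.02 and 3.93 in the same order, with a change of -1.01 in LNCaP. PSPH, the phosphatase of serine synthesis, was at 16.2 and 11.4, 10.2 and 13.5, and 12.7 and 5.34, with a change of -1.11 in LAPC4. PSPH has a near-identical partial copy, so its counts are uncertain.

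PHGDH, which catalyses the first step of serine synthesis, did not follow PSAT1. It was at 22.0 and 40.2 in the LNCaP pair, 5.62 and 9.75 in the VCaP pair, and 12.9 and 9.48 in the LAPC4 pair. Its change in the LNCaP pair was 0.84 where that of PSAT1 was -1.25, a difference between 2 enzymes of one pathway that was not tested. ASNS, asparagine synthetase, changed by -0.98, 0.45 and -0.88, just under 2-fold on the log2(scaled FPKM + 1) scale in 2 of the pairs. By the ratio of levels, 19.9 in LNCaP was 2.08-fold above 9.58 in LNCaP-abl, and LAPC4 was 1.96-fold above LAPC4-CR. SHMT2, which feeds serine into mitochondrial one-carbon metabolism, was lower in every resistant library, with changes of -0.57, -0.46 and -0.21. ALDH1L2, below the filter, was at 0.368 in LNCaP and 2.08 in LNCaP-abl, a ratio of 5.64 with a 95% counting interval of 3.82 to 8.64 (exact binomial), and at 0.132 to 0.437 in the other 4 libraries. Counting intervals cover counting error only, not the spread between cultures.

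Among genes of feedback and stress output, TRIB3, SESN2 and PPP1R15A were lower in every resistant library. TRIB3, a pseudokinase that feeds back on ATF4 and CHOP (ENSG00000101255, chr20:309261-326203 in hg18), was at 36.3 and 19.6 in the LNCaP pair, 20.6 and 7.55 in the VCaP pair, and 85.3 and 42.7 in the LAPC4 pair. Its changes were -0.85, -1.33 and -0.98, a mean of -1.06 ± 0.25 (SD, n = 3). The LAPC4 libraries were the highest of all, so sensitive and resistant values overlapped between lines. SESN2, a stress-induced inhibitor of mTORC1, was at 6.16 and 4.75, 1.75 and 1.46, and 11.6 and 4.45, with a change of -1.21 in LAPC4. PPP1R15A, the phosphatase subunit GADD34 that restores translation, changed by -0.27, -0.60 and -0.68. In all, 5 members were lower in all 3 resistant libraries (TRIB3, SESN2, SHMT2, ATF3 and PPP1R15A), against 16.7% of all genes.

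CHAC1 and STC2 went in opposite directions between pairs. CHAC1, which degrades glutathione, was at 4.96 and 7.73 in the LNCaP pair, 0.820 and 1.93 in the VCaP pair, and 9.60 and 1.83 in the LAPC4 pair. LAPC4 was 5.26-fold above LAPC4-CR, the largest such ratio of the 22 ATF4 arm members tested, with a change of -1.91. STC2, a secreted glycoprotein, was at 7.52 and 9.91, 5.32 and 14.8, and 19.2 and 6.95. Its change was 1.32 in VCaP-CR and -1.35 in LAPC4-CR. DDIT4, which restrains mTORC1, changed little in any pair (0.07, 0.48 and 0.04), and VLDLR, a lipoprotein receptor, changed by 0.31, -0.16 and -0.97. The tRNA synthetases AARS, GARS and WARS had changes of -0.42 to 0.46 in LNCaP-abl, 0.55 to 0.92 in VCaP-CR and -0.92 to -0.24 in LAPC4-CR, so all 3 were higher in VCaP-CR and lower in LAPC4-CR.

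In the XBP1/ATF6 arm 7 of 9 chaperones and cochaperones were at least 2-fold higher in VCaP-CR than in VCaP. HSPA5, the Hsp70 chaperone BiP that holds the stress sensors inactive (ENSG00000044574, chr9:127036953-127043443 in hg18), stood at 153 in LNCaP against 146 in its derivative, at 109 against 351 in the VCaP pair, and at 221 against 241 in the LAPC4 pair. VCaP was the lowest of the 6 libraries and VCaP-CR the highest, a ratio of 3.21 with a counting interval of 3.10 to 3.32. HSP90B1, the ER Hsp90 (GRP94), was at 116 and 96.4 in the LNCaP pair, 123 and 369 in the VCaP pair, and 101 and 190.2 in the LAPC4 pair. It was also higher in LAPC4-CR, with changes of -0.26, 1.57 and 0.91. CALR, a calcium-binding chaperone of glycoproteins, was the most abundant member in every library, at 443 and 624, 432 and 1057, and 941 and 1075. Its change was above 0 in each pair, at 0.49, 1.29 and 0.19. CANX, its membrane-bound relative, changed by 0.06, 0.03 and 0.48 and was the member of the arm that moved least in VCaP-CR.

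DNAJC3 (p58IPK, a cochaperone of BiP and inhibitor of PERK; ENSG00000102580, chr13:95127412-95241302 in hg18) was at 14.2 and 33.1 in the LNCaP pair, 6.02 and 19.4 in the VCaP pair, and 15.6 and 28.2 in the LAPC4 pair. Its lowest resistant value lay above its highest sensitive value. It was the only 1 of 40 members for which the states did not overlap upward, against 3.44% of genes, and 0 did so downward, against 3.22%. The changes were 1.16, 1.54 and 0.82, a mean of 1.17 ± 0.36 (SD, n = 3). DNAJB9, an ER cochaperone that represses IRE1, changed by 0.63, 0.80 and 0.32. Both belong to 8 members that were higher in all 3 resistant libraries (DDIT4, DNAJB9, DNAJC3, PDIA4, PDIA6, CALR, CANX and ATF6), against 15.1% of genes.

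MANF, a secreted ER protein released under stress (ENSG00000145050, chr3:51397518-51401868 in hg18), was at 35.6 and 24.0 in the LNCaP pair, 11.8 and 51.9 in the VCaP pair, and 80.3 and 34.9 in the LAPC4 pair. It was 4.41-fold higher in VCaP-CR than in VCaP and 2.30-fold lower in LAPC4-CR than in LAPC4. MANF and STC2 were the 2 members that changed at least 2-fold in opposite directions, against 1.27% of genes. SDF2L1, part of a BiP cochaperone complex, was at 23.3 and 19.7, 10.4 and 26.4, and 35.0 and 36.0. CRELD2, an ER folding factor, was at 6.06 and 4.84, 2.16 and 7.33, and 7.82 and 8.31. Both were lowest in VCaP and changed by 1.26 and 1.40 in that pair.

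The disulfide isomerases PDIA4 and PDIA6, which form and rearrange disulfide bonds, were higher in all 3 resistant libraries. PDIA4 was at 88.4 and 108 in the LNCaP pair, 69.4 and 216 in the VCaP pair, and 215 and 283 in the LAPC4 pair. PDIA6 was at 36.4 and 50.7, 32.5 and 76.2, and 53.7 and 64.7. For both, VCaP was the lowest library. Among genes of ER-associated degradation, SEL1L, the scaffold of the HRD1 ubiquitin ligase, was at 8.42 and 7.64, 6.08 and 21.1, and 10.8 and 12.1. VCaP-CR was thus 3.47-fold above VCaP, behind only MANF within the arm in that pair. HERPUD1, an ER membrane component of the same pathway, changed by -0.33, 0.97 and -0.29, and EDEM1, which marks misfolded glycoproteins, by 0.34, 0.18 and -0.89. XBP1 itself was at 70.7 and 62.0 in the LNCaP pair, 85.5 and 135 in the VCaP pair, and 108 and 128 in the LAPC4 pair, with changes under 2-fold throughout (-0.19, 0.65 and 0.25).

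**Figure D3:**
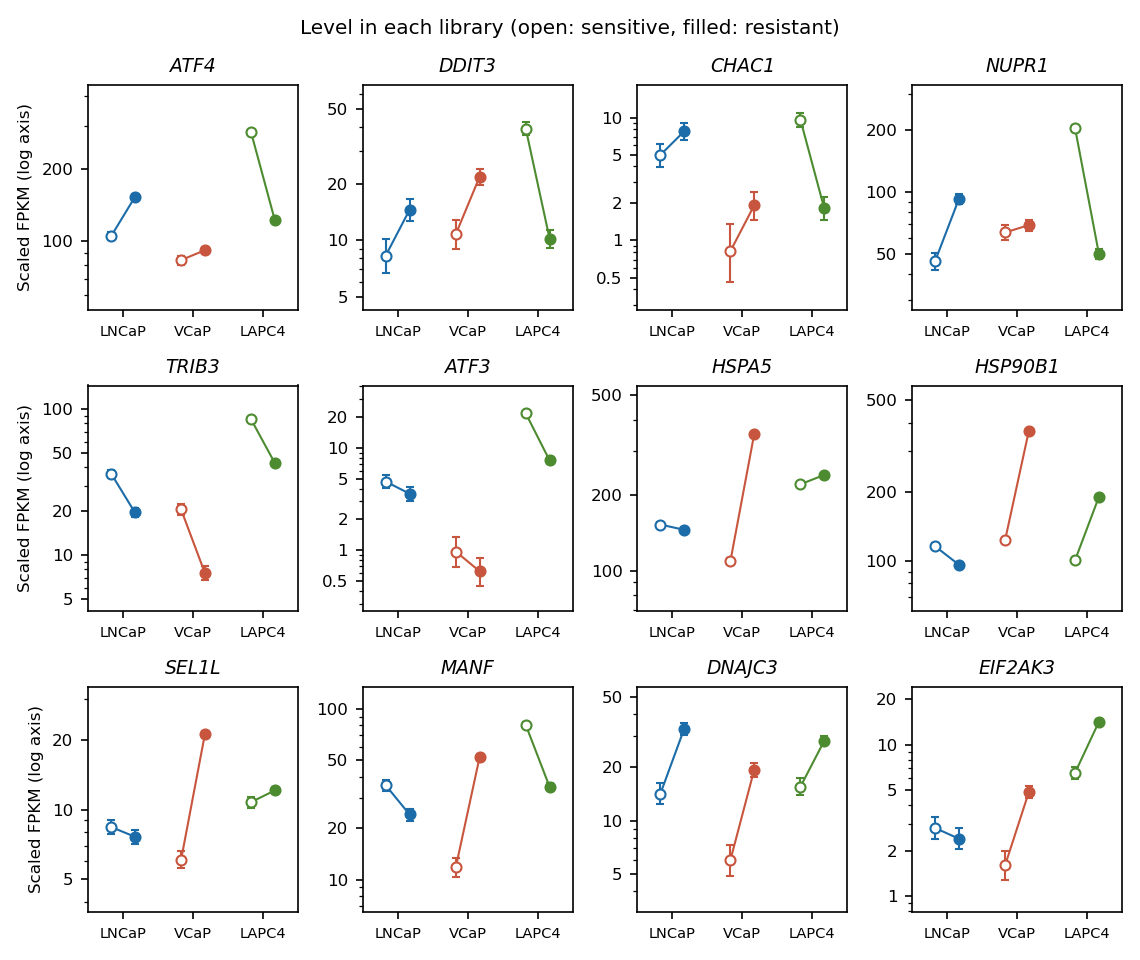
Level of 12 members in each library in scaled FPKM on a log axis, with open circles for sensitive and filled circles for resistant libraries of each line and bars for 95% counting intervals (exact Poisson). DDIT3, CHAC1 and NUPR1 drop from LAPC4 to LAPC4-CR, HSPA5, HSP90B1, SEL1L and MANF climb from VCaP to VCaP-CR, TRIB3 is lower and DNAJC3 higher in all 3 resistant libraries.

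Within the XBP1/ATF6 arm, members with and without an ERSE or ERSE-II lay on both sides of 2-fold in VCaP-CR. Of the 10 members at least 2-fold higher in VCaP-CR, 5 hold an ERSE in the window (HSPA5, HSP90B1, CRELD2, PDIA6 and CALR) and SDF2L1 an ERSE-II, as printed above. DNAJC3, SEL1L, MANF and PDIA4 hold only the CCACG core there. Conversely XBP1 and CANX hold an ERSE and HERPUD1 an ERSE-II, with changes of 0.65, 0.03 and 0.97. DNAJB9 and EDEM1, also with the CCACG core only, changed by 0.80 and 0.18.

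The sensors were expressed at lower levels than most of their targets. EIF2AK3, the kinase PERK, stood at 2.82 in LNCaP against 2.40 in its derivative, at 1.60 against 4.89 in the VCaP pair, and at 6.56 against 14.2 in the LAPC4 pair. It was 3.06-fold higher in VCaP-CR than in VCaP, with a counting interval of 2.42 to 3.90, and 2.17-fold higher in LAPC4-CR than in LAPC4. EIF2AK3 was highest in LAPC4-CR, where the ATF4 arm lay below LAPC4 but not below the VCaP libraries. Against each gene's mean over the libraries, the arm's median was -0.34 in LAPC4-CR and 0.70 in LAPC4. It was -0.56 in VCaP and -0.40 in VCaP-CR, and a link between the kinase and the arm was not tested. ERN1, the kinase and ribonuclease IRE1, was at 2.83 and 3.57, 2.04 and 2.74, and 4.74 and 4.26. ATF6 was at 6.31 and 8.54, 7.59 and 8.30, and 11.7 and 12.6. Neither changed 2-fold in any pair, and all 3 sensors had their 2 highest values in the LAPC4 libraries.

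Whether members differed between the states across lines was tested with edgeR's quasi-likelihood test on the counts of all 16231 genes, with the parental line as a block. With Benjamini-Hochberg adjustment over all genes, 0 of 40 members were called higher and 0 lower at 5%, against 0% and 0% of all genes. At an unadjusted p under 0.05, edgeR called 3 members higher (DNAJB9, DNAJC3 and CALR), against 4.49% of genes, and 2 lower (TRIB3 and ATF3), against 3.38%. DNAJC3 had a log2 fold change of 1.26 (SE 0.28) and an adjusted p of 0.593, and TRIB3 one of -1.10 (SE 0.25) and an adjusted p of 0.593, in edgeR's quasi-likelihood test with Benjamini-Hochberg adjustment. ATF3 had a log2 fold change of -0.86 (SE 0.33), with an adjusted p of 0.609 by the same edgeR test. DESeq2 called DNAJC3 higher (1.26, adjusted p 0.0312) and TRIB3 lower (-1.09, adjusted p 0.0465), where it called 0.505% of all genes higher and 0.339% lower, and limma called 0 members. Over the alternatives tried, the adjusted p of DNAJC3 ranged from 0.0312 to 1.00 and that of TRIB3 from 0.0465 to 1.00, the lowest from DESeq2 and the highest without the block. The directions of DNAJC3 and TRIB3 were the same in 3 of 3 pairs. For HSPA5 the spread over pairs exceeded the mean, at 0.58 ± 0.95 (SD, n = 3), and for DDIT3 the mean was -0.05 ± 1.56 (SD, n = 3).

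Levels also differed between the parental lines. A test of the 3 lines in the same edgeR model, added after the data were seen, called 8 of 40 members at an adjusted p under 5%, against 12.7% of genes (DDIT4, TRIB3, SESN2, PHGDH, ATF3, VLDLR, AARS and DNAJB9). Its replicates are a parent and its derivative, which are not alike. ATF3 had the smallest adjusted p of the 8, 0.00756, by edgeR's quasi-likelihood test with Benjamini-Hochberg adjustment, with levels of 7.56 or more in LAPC4 and LAPC4-CR and of 0.970 or less in VCaP and VCaP-CR. DDIT4 and PHGDH were highest in the LNCaP libraries, DDIT4 at 41.9 and 44.2 against 14.1 to 20.0 elsewhere. VLDLR was highest in the VCaP libraries, at 14.7 and 13.0 against 2.35 to 5.68. AARS was lowest there, at 24.1 and 38.0 against 74.7 to 149.9. DNAJB9 was highest in the LAPC4 libraries, at 15.1 and 19.1 against 2.81 to 7.15.

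By the order of the 6 values alone, both LAPC4 libraries lay above the other 4 for 9 of 40 members (TRIB3, MTHFD2, ATF3, DNAJB9, SDF2L1, CRELD2, ERN1, EIF2AK3 and ATF6), against 13.2% of genes, and below them for 0, against 12.5%. Both VCaP libraries lay above the others for 1 member, VLDLR, against 18.3% of genes, and below them for 7 (ATF4, ASNS, SESN2, ATF3, AARS, EDEM1 and ERN1), against 18.6%. Both LNCaP libraries lay above for 3 (DDIT4, PHGDH and SHMT2), against 11.5%, and below for 3 (PPP1R15A, XBP1 and CANX), against 9.51%. The low XBP1/ATF6 arm of VCaP was not shared by VCaP-CR. VCaP held the lowest value of 12 of the arm's 15 members, against 2611 of all 16231 genes tested. VCaP-CR held the lowest value of 0 of the arm's members, against 2864 of all genes tested. Set against each gene's mean over the 6 libraries, the median level of this arm was -0.76 in VCaP and 0.51 in VCaP-CR, and between -0.30 and 0.44 in the other libraries. For the ATF4 arm it was 0.70 in LAPC4 and -0.34 in LAPC4-CR, with 0.40 and 0.06 for the LNCaP pair and -0.56 and -0.40 for the VCaP pair. LAPC4 held the highest value of 11 of the 22 ATF4 arm members, against 2779 of all 16231 genes tested. The contrast in the VCaP pair thus set a low parent against a resistant line near both LAPC4 libraries, and that in the LAPC4 pair set a high parent against a resistant line near both VCaP libraries.

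**Figure D4:**
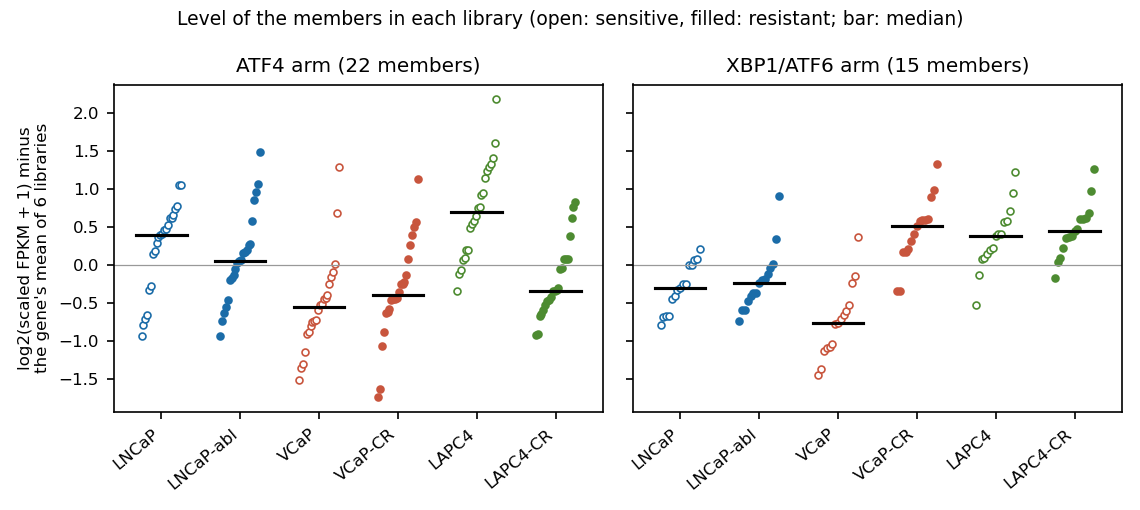
Level of each tested member in each library, as log2(scaled FPKM + 1) minus the gene's mean over the 6 libraries, for the ATF4 arm (22 members) and the XBP1/ATF6 arm (15 members); open circles are sensitive and filled circles resistant libraries, points are sorted within a library and bars are medians. The ATF4 arm has its highest median in LAPC4 (0.70) and the XBP1/ATF6 arm its lowest in VCaP (-0.76).

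Other genes of the same pathways were read from lists written alongside the members, also with earlier results of these data known. They are therefore no independent check of the arms. The kinases and factors of eIF2 (12 genes) had medians near 0, -0.09, -0.01 and 0.06 for the same lines in that order. On the log2(scaled FPKM + 1) scale none of them changed 2-fold in any pair, against 23.3% of all genes in at least 1 pair. EIF2AK4 (GCN2), the kinase that senses uncharged tRNA, came closest, at 24.8 and 12.0 in the LNCaP pair with a change of -0.99. By the ratio of levels LNCaP was 2.07-fold above LNCaP-abl for this gene. The largest changes of EIF2S3 and EIF2B2 were -0.80 in LNCaP and -0.68 in LAPC4. The other 17 cytosolic tRNA synthetases had medians of -0.01, 0.08 and 0.17 and did not share a direction: in the LAPC4 pair CARS changed by -1.22, LARS by 1.16 and IARS by 0.89.

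A further 19 tested genes linked to ATF4 had medians of -0.28, -0.03 and -0.89, lowest in LAPC4 as in the ATF4 arm. In the LAPC4 pair 17 were lower, against 8388 of all 16231 genes, and 7 at least 2-fold lower, against 5.28%. GDF15, a secreted stress cytokine, was at 163 and 7.33 in the LNCaP pair, 34.7 and 1.35 in the VCaP pair, and 167 and 1.14 in the LAPC4 pair. It was lower in 3 of 3 resistant libraries, with a log2 fold change of -5.39 (SE 0.63) and an adjusted p of 0.314 in edgeR's quasi-likelihood test with Benjamini-Hochberg adjustment. Leaving out the LNCaP, VCaP or LAPC4 pair brought that edgeR adjusted p to 0.0345, 0.0120 or 0.00316, and over all alternatives it ranged from 3.8e-19 (DESeq2) to 1.00 (no block). The amino acid transporter SLC7A5 (LAT1) was at 1.04 and 26.7 in the LNCaP pair, with a change of 3.76, at 0.827 and 0.463 in the VCaP pair, and at 20.7 and 8.95 in the LAPC4 pair. JDP2, a bZIP repressor, was at 3.03 and 6.99, 0.670 and 0.671, and 12.0 and 0.988 in the same order, higher in LNCaP-abl and lower in LAPC4-CR.

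A further 24 ER folding and degradation genes had medians of 0.12, 0.72 and 0.12, highest in VCaP as in the XBP1/ATF6 arm. In the VCaP pair 21 of 24 were higher and 8 at least 2-fold higher, against 48.5% and 2.37% of all genes. P4HB, the founding disulfide isomerase, was at 20.3 and 17.4 in the LNCaP pair, 7.17 and 24.5 in the VCaP pair, and 25.4 and 63.5 in the LAPC4 pair. OS9, a lectin of ER-associated degradation, changed by 1.64, 0.68 and 0.62. ERO1LB, an ER oxidase, changed by -1.72 in the LAPC4 pair. Chaperones outside the ER gave another order, with medians of 0.26, 0.23 and 0.90 for 10 heat shock genes. In the LAPC4 pair 9 of 10 were higher, against 48.3% of all genes. There 5 were at least 2-fold higher, against 5.22%, HSPH1 (1.28) and DNAJB1 (1.17) among them, while HSPB1 changed most in the LNCaP pair (1.83). In the paired edgeR test with Benjamini-Hochberg adjustment 0 genes of these 5 lists were called. At an unadjusted p under 0.05 edgeR called 5 of 24 ER folding genes and 4 of 10 heat shock genes higher, against 4.49% of all genes. It called 3 of 19 ATF4-linked genes lower, against 3.38%. DESeq2 called 2 of the lists' genes, GDF15 lower and SEC24D, a vesicle coat protein, higher (log2 fold change 1.18, adjusted p 0.0420), and limma called 0. Of all genes DESeq2 called 0.339% lower and 0.505% higher.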

How the data were processed

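Total RNA of 6 prostate cancer cell line libraries was made into libraries with a SOLiD total RNA-seq kit, per the labels' protocols. Each library's deposited table gives read counts and FPKM for 51698 Ensembl genes, with gene length as a further column, per the file headers. HTSeq and hg18 are named in the submitters' processing notes, with no version or role. No aligner, strand setting or treatment of reads that map to several places is named: these were not given in the sources used here. The deposited FPKM were rebuilt from counts, length and library total within 1% for 99.9996% of values with at least 1 count.

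Small RNA classes (8763 entries, 13.0 to 27.0% of counts) were left out and entries sharing a symbol were summed, which left 42887 symbols. FPKM were divided by median-ratio factors from 11600 genes. Tests covered the 16231 genes whose mean reached 1 scaled FPKM, and changes used a pseudocount of 1. The counts were tested with edgeR 4.0.16 (R 4.3.3; TMM factors, quasi-likelihood, line as block, Benjamini-Hochberg), with DESeq2 1.42.0 and limma 3.58.1 as alternatives. The pairing comes from the line names, and deviations from the group means correlated across genes within each pair (0.46, 0.73 and 0.59). On simulated counts for all 16231 genes with a dispersion of 0.121, the paired edgeR test recovered 83% of 100 4-fold and 100% of 100 16-fold changes, with 1 false call. That simulation gave every gene the same dispersion, and each changed gene was well counted and changed equally in all pairs. In the real data genes differ in spread and pairs differ in change, so these rates do not give the power there. Coordinates of genes are as deposited for hg18, with 1 added to the start; promoters are from RefSeq for GRCh38.p14.

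The members and lists were chosen with earlier results of these data known. Members given with all 6 values are ATF4, DDIT3, XBP1, HSPA5, the sensors and those changed at least 2-fold in a pair; from each companion list up to 3 genes with the largest change are named. Others named outside this rule were chosen after their values were seen.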

Additional observations from a re-analysis of the deposited data

Results flagged for a closer look

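On the log2(scaled FPKM + 1) scale, MANF and STC2 went in opposite directions in 2 pairs, by at least 2-fold each. By the ratio of levels without the added 1, CHAC1, DDIT3 and NUPR1 also did. The change of MANF in the VCaP pair minus that in the LAPC4 pair was 3.23, and that of STC2 was 2.67, both on the log2(scaled FPKM + 1) scale. With 1 library per line and state these differences were not tested.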

How the results depend on the processing

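Alternatives were another pseudocount (0.25 or 5), deposited FPKM without scaling, factors from protein-coding genes, other filters, other tools and leaving out each pair. All 54 alternative values of the arm medians and their differences within a pair stayed within the spread between pairs. Those whose main value was at least 0.2 from 0 kept their direction. No change of at least 2-fold within a pair changed sign among the named genes. Across the pairs edgeR called no member, so no call could change sign, but small estimates did. ATF4 went from -0.16 to 0.35 without the LAPC4 pair, and DDIT3 from 0.02 to -0.56 without the VCaP pair. Across the pairs, edgeR called 0 members higher and 0 lower with no replicate block and without each pair in turn (range 0 to 0), and DESeq2 called 1 and 1. The line difference called 13 members in DESeq2 (24.5% of all genes), 14 with no filter on low values (11.8%) and 4 among protein-coding genes only (11.4%), against 8 (12.7%). The LNCaP count of members at least 2-fold higher, 1, became 0 at pseudocount 5 and 2 with deposited FPKM, no filter or no pseudocount (added after the data were seen). The LNCaP count of lower members, 3, became 1 at pseudocount 5. The LAPC4 count of higher members, 1, became 0 at pseudocount 5 or with protein-coding factors. The mean of the arm medians over pairs rested on single pairs: for the ATF4 arm it was -0.36, and -0.63 to -0.07 with a pair left out, nearest 0 without LAPC4; for the XBP1/ATF6 arm it was 0.47, and 0.06 to 0.74, nearest 0 without VCaP. Over all genes edgeR called 0 higher and 0 lower, DESeq2 82 and 55, edgeR with no filter 95 and 58, and without the LNCaP, VCaP or LAPC4 pair 0 and 5, 13 and 20, and 3 and 1. Without the block, 251 and 161 genes had an unadjusted p under 0.05, against 728 and 548. The cause of these shifts was not tested. With 1 library per line and state, depth limits the low genes most.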

Other observations

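Of 18 tested genes outside the members that hold an ERSE or ERSE-II in the promoter window, 10 were higher in VCaP-CR, the median change was 0.12 and 1, HYOU1 (1.30), was at least 2-fold higher. Beside them, 8259 tested non-members had a window with neither motif. Of those, 4081 were higher in VCaP-CR and 167 at least 2-fold higher, with a median of -0.01. The 9 members that hold either motif had a median of 1.26 in that pair, and 6 of them were at least 2-fold higher. With ERSE alone, the medians were 0.20 for 7 other genes and 1.29 for 7 members. These are counts without a test.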
